A study of Arabidopsis thaliana with 9 samples.

Results

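The proteins described here are the preys recovered with the bait SCAB1 in a yeast two-hybrid screen of Arabidopsis thaliana, set against the preys of the kinase baits PKS5 and SOS2. SCAB1 accounted for 3 of the 9 libraries, chosen by the bait name in the labels, and PKS5 and SOS2 for 3 each. The SCAB1 group, the PKS5 group and the SOS2 group each held 1 library at a recovery time of 0 h (replicate 1), 1 at 2 h (replicate 2) and 1 at 4 h (replicate 3). All 9 came from a cDNA library screened in yeast on medium lacking tryptophan, leucine and histidine with 1 mM 3-AT, over 3000 colonies a sample. The labels give no separate cultures for the 3 libraries of a bait, so p-values measure the spread between these samples, which may be partly technical.

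SCAB1 is a plant protein that binds, bundles and stabilises actin filaments and takes part in stomatal closure. PKS5 and SOS2 are kinases that work with calcium sensors of the calcineurin B-like family, and SOS2 is known for salt tolerance. In a two-hybrid screen, yeast grows without histidine when bait and prey join the separated parts of a transcription factor. 3-AT inhibits the histidine enzyme and so raises the threshold for growth. Reads of a gene count copies of its insert in plasmids of the surviving yeast, so a read count is a measure of abundance in the selected pool and not of binding strength. Growth of a few colonies and many PCR copies of 1 insert cannot be told apart from a read count.

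Libraries held 1640114 to 3288437 reads, and 3 reads corresponded to 0.912 to 1.83 CPM (a gene's reads put on 1 scale for libraries of any size). Of 10224 genes in the table, 3811 had enough reads to be tested. These held 98.6% to 99.8% of the reads of a library. In the SCAB1 libraries 3457, 2135 and 1848 genes had at least 10 reads at 0, 2 and 4 h, against 3333, 2111 and 3391 in the PKS5 libraries and 4864, 3238 and 2966 in the SOS2 libraries. The 10 highest genes took 45.5%, 49.9% and 52.5% of SCAB1 reads, against 69.7%, 81.4% and 68.5% in PKS5 and 33.7%, 47.3% and 41.4% in SOS2. The SCAB1 values lay below every PKS5 value and overlapped with those of SOS2. Neither difference between SCAB1 and the 6 kinase libraries passed an exact permutation test over 84 arrangements (two-sided, p = 0.286 and 0.524). The adjusted p was 0.786 for both. The effective number of genes, a measure of how evenly reads were spread, was 139, 84.6 and 79.9 in SCAB1. It was 42.8, 19.6 and 48.9 in PKS5 and 284, 106 and 133 in SOS2 (exact permutation p = 0.905, adjusted over the same 3 measures 0.905). The smallest p this design allows is 0.0238. The test pools PKS5 and SOS2, which did not overlap in the share of the 10 highest genes or the effective number. It therefore does not compare SCAB1 with either bait alone.

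The bait's own gene was the first check of the libraries. As a prey, SCAB1 itself had 34.5, 80.0 and 57.9 CPM in the SCAB1 libraries. It had 0, 0 and 0.479 CPM in the PKS5 libraries and 2.73, 2.05 and 0.304 CPM in the SOS2 libraries. The gene passed the filter on low counts through the SCAB1 libraries alone, so no test of it is given as support. The PKS5 group held 1 read of it in all and the SOS2 group 11, so no fold change is given. The gene of PKS5, listed in RefSeq as SIP4, had 1183, 1416 and 987 CPM in the SCAB1 libraries, between its 1659, 1648 and 1933 CPM with PKS5 as bait and its 701, 426 and 926 CPM with SOS2. The gene of SOS2 had no read in any SCAB1 library, 1 read over the PKS5 libraries and 24 over the SOS2 libraries.

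A gene was called when SCAB1 differed from PKS5 and from SOS2 in the same direction. The call used the larger of both p-values in limma-voom, adjusted over all 3811 genes, with an adjusted p under 0.05. It named 357 genes, 9.37% of those tested. Of these, 291 were higher with SCAB1 than with both kinases (7.64%) and 66 were lower than with both (1.73%). Against the mean of the kinase baits alone, 1345 genes were called (35.3%), of which 552 were higher (14.5%) and 793 lower (20.8%). The median log2 difference over all tested genes was -0.06 against PKS5 and -0.25 against SOS2. Without SCAB1 replicate 1, at 0 h, 40 genes were lower than with both kinases and 443 lower than the kinase mean. On distinct reads, where SCAB1 replicate 3 could not be used, 872 genes were tested, and 43 were called higher and 13 lower. Of the 291, 80 were among these 872, and 26 of the 80 were called higher again.

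As a description of the called genes, the 291 higher preys took 43.5%, 51.5% and 54.3% of the reads of the SCAB1 libraries. They took 1.62%, 0.629% and 1.38% in PKS5 and 4.71%, 4.34% and 4.25% in SOS2. Of the 291, 164 averaged at least 100 CPM with SCAB1 and 45 at least 1000 CPM. For 12 of the 291, no kinase library held over 3 reads. In all, 47 tested genes passed the filter on low counts through the SCAB1 libraries alone and had to differ, and all 47 are among the 291. The other 244 reached the filter level of about 10 reads in at least 1 kinase library. The filter asked for 3 libraries, so some of the 244 still needed SCAB1 libraries to pass. Among the genes named below these were iPGAM1, VDAC4, FLA18 and RAB1C. Their number among the 244 was not counted. RefSeq gives a symbol to 137 of the 291, and the other 154 are known here by locus number alone.

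**Figure D1:**
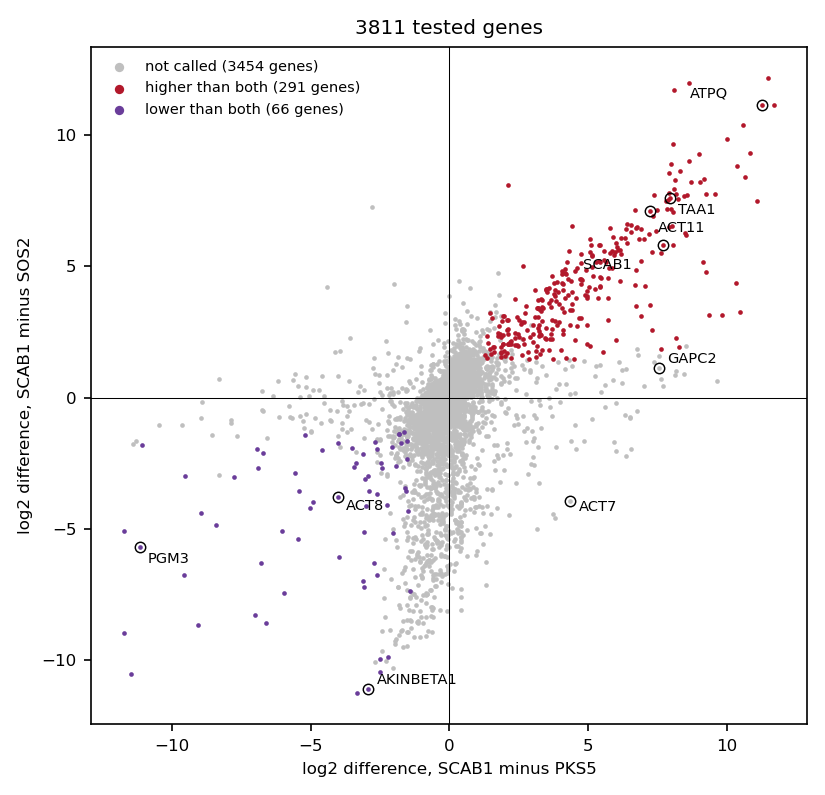
Each point is 1 of the 3811 tested genes, with the log2 difference of SCAB1 minus PKS5 on the horizontal axis and of SCAB1 minus SOS2 on the vertical axis; both axes share the SCAB1 libraries. The 291 genes called higher lie in the upper right, the 66 called lower in the lower left, and GAPC2 and ACT7 are marked as genes that were not called.

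The 25 highest preys among those above both kinases came from many compartments. RefSeq has a symbol for 13 of them and none for 12. Of those whose location is well established, 2 belong to the mitochondrion (ATPQ and VDAC1), 2 to the cytosol (TAA1 and MS2), and 1 each to the cell wall space (ARA12), the peroxisome (IBR10), the nucleus (IBH1) and the plasma membrane (KT1). The remaining 17 were not assigned. None of the 25 is an actin or a member of the actin-binding list. Only 4 actins and 16 actin-binding genes were among the 3811 tested genes. With so few, their absence from 25 genes is likely for any bait, and no conclusion is drawn from it.

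**Figure D2:**
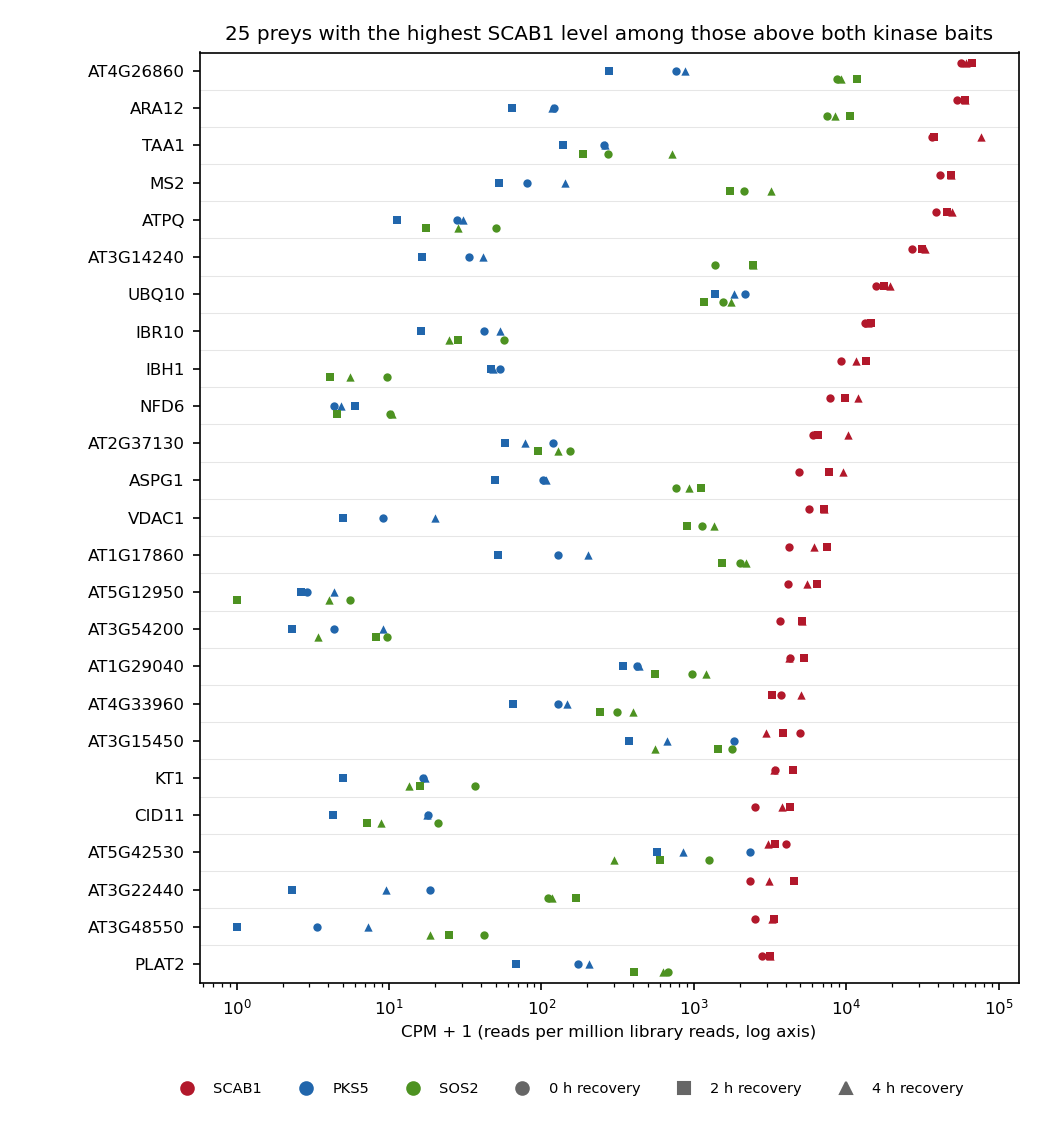
Abundance in every library of the 25 preys with the highest mean SCAB1 level among genes called higher than both kinases, as CPM plus 1 on a log axis, with SCAB1 in red, PKS5 in blue and SOS2 in green and the marker shape giving the recovery time. All 3 SCAB1 values lie right of the 6 kinase values in each row.

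ATPQ, the D chain of the mitochondrial ATP synthase, was the prey whose difference was largest among the 5 highest called preys. It had 38766, 46121 and 49681 CPM with SCAB1, against 27.0, 10.2 and 29.7 CPM with PKS5 and 49.2, 16.4 and 27.4 CPM with SOS2. The groups were far from overlapping, and the ratio of means was 2011 against PKS5 and 1448 against SOS2. The log2 difference was 11.27 ± 0.64 (SE) against PKS5 and 11.14 ± 0.64 against SOS2, with an adjusted p of 3.87e-11. Distinct reads of ATPQ numbered 150 and 107 in SCAB1 replicates 1 and 2, against 14, 7 and 8 in PKS5 and 16, 13 and 17 in SOS2. The gamma subunit ATP3 and the delta subunit ATP5 of the same enzyme were not called, with means of 7.53 and 2.53 CPM with SCAB1. Of 3 annotated and tested ATP synthase genes, 1 was called higher and 0 lower. The background for this and each further list count is 7.64% higher and 1.73% lower over all tested genes. The 7.64% includes the 47 genes that passed the filter through the SCAB1 libraries alone, all called higher. It is therefore too high a background for list counts given without such genes.

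VDAC1, a channel of the outer membrane, had 5721, 7164 and 7120 CPM with SCAB1, against 8.05, 3.97 and 19.1 CPM with PKS5 and 1124, 895 and 1357 CPM with SOS2 (adjusted p = 0.00175). VDAC1 was also far more abundant with SOS2 than with PKS5, and the log2 difference was 9.82 ± 0.62 against PKS5 and 3.12 ± 0.67 against SOS2. IDH-V, a subunit of the NAD-dependent isocitrate dehydrogenase of the citric acid cycle, had 1503, 1878 and 1579 CPM with SCAB1. It had 12.3, 2.31 and 14.4 CPM with PKS5 and 28.2, 7.68 and 5.47 CPM with SOS2, with no overlap (adjusted p = 1.33e-10). CYTC-1, a cytochrome c that carries electrons in the respiratory chain, had 229, 330 and 273 CPM, against 67.8, 14.2 and 47.4 CPM with PKS5 and 83.8, 33.8 and 21.6 CPM with SOS2 (adjusted p = 7.32e-06, and 0.148 on distinct reads without SCAB1 replicate 3). VDAC4 was far rarer, at 12.0, 8.74 and 4.88 CPM with SCAB1, and overlapped with the 6.83 CPM of SOS2 replicate 1. No other kinase library reached the filter level, so VDAC4 needed SCAB1 libraries to pass and its test is no support. Its adjusted p of 0.0319 became 0.22 without SCAB1 replicate 2, 0.0576 without SCAB1 replicate 3 and 0.0809 without SOS2 replicate 1. It was 1 with library size alone, 0.54 when genes above 5% of a library were left out of the library size and 0.0726 with limma-trend.

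In the list of mitochondrial carriers and the respiratory chain, 3 of 10 tested genes were higher and 0 lower. VDAC4, 1 of the 3, needed SCAB1 libraries to pass the filter. The median log2 difference was 1.01 against PKS5 and 0.80 against SOS2, beside -0.06 and -0.25 over all genes. VDAC3 averaged 311 CPM with SCAB1, 32.5 with PKS5 and 245 with SOS2 and was not called (adjusted p = 0.477). In the citric acid cycle and pyruvate dehydrogenase list 1 of 6 tested genes was higher, IDH-V, and 0 lower. Aconitase ACO1, chosen after its values were seen, had 2606, 2876 and 2516 CPM with SCAB1, against 40.7, 13.9 and 40.7 CPM with PKS5 and 1065, 857 and 1320 CPM with SOS2. Again no SCAB1 value reached the kinase range, but the adjusted p was 0.0535, and it was 0.00114 without SOS2 replicate 3 and 0.021 without SCAB1 replicate 1. ACO1 was also called with library size alone (0.0491), when genes above 5% of a library were left out of the library size (0.00555), with no filter (0.0266), with at least 100 reads (7.35e-06), with the replicate block (0.00506) and without the 0 h libraries (0.0235). Import and complex II genes, a list drawn from RefSeq names after values were seen, had 2 of 13 tested genes higher. These were SDH5, a subunit of succinate dehydrogenase, at 171, 176 and 142 CPM with SCAB1, and the inner membrane translocase TIM23-1, at 124, 122 and 95.1 CPM. On distinct reads, SDH5 was not higher than both kinases (log2 difference to the nearer kinase -0.08, adjusted p = 1). Genes encoded in the mitochondrial genome were 13 in the table. Together they had 4445, 2702 and 4303 CPM with SCAB1, against 977, 525 and 1095 CPM with PKS5 and 2179, 2602 and 5493 CPM with SOS2. The SCAB1 and SOS2 values overlapped, and 0 of the 4 tested genes were called.

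Enzymes of primary metabolism filled a large part of the SCAB1 pool. The annotated cytosolic glycolysis genes took 14.6% ± 0.442 of SCAB1 reads, against 5.89% ± 1.04 of PKS5 reads and 9.22% ± 1.02 of SOS2 reads (SD, n = 3 each). Most of the SCAB1 share lay in the glyceraldehyde-3-phosphate dehydrogenases GAPC1 and GAPC2, which together took 12.9% of SCAB1 reads, 0.0808% of PKS5 reads and 7.495% of SOS2 reads. GAPC2, the most abundant prey with SCAB1, had 80914, 78147 and 73927 CPM, against 572, 269 and 626 CPM with PKS5 and 47849, 46360 and 58218 CPM with SOS2. Its values did not overlap with SOS2, but the log2 difference to SOS2 was 1.13 ± 0.77 and the call was not made (adjusted p = 0.606, and 0.0435 with at least 100 reads). GAPC1 had 53428, 51483 and 48279 CPM with SCAB1 and was not called either (adjusted p = 0.313). GAPC1 was called with library size alone (0.000298), with at least 100 reads (0.00498), on distinct reads (0.00867) and with the replicate block (0.0366). GAPC1 and GAPC2 are near-identical genes, and the sources used here do not give how reads that match both were assigned. Of 13 annotated and tested glycolysis genes, 1 was higher and 1 lower. iPGAM1, a phosphoglycerate mutase, was higher at 34.0, 28.9 and 22.6 CPM, against 2.84, 1.98 and 3.83 CPM with PKS5 and 9.56, 0.512 and 0.912 CPM with SOS2 (adjusted p = 7.16e-05, and 0.0607 when genes above 5% of a library were left out of the library size). It rested on 2 and 1 distinct reads in SCAB1 replicates 1 and 2, against 2, 4 and 3 in PKS5 and 5, 1 and 2 in SOS2. Among the kinase libraries only SOS2 replicate 1 reached the filter level. Thus iPGAM1 needed SCAB1 libraries to pass and its test is no support. PGM3, a phosphoglucomutase, was the glycolysis-list gene that was lower, at 28.0, 12.2 and 29.9 CPM with SCAB1. It had 43588, 63996 and 57342 CPM with PKS5 and 1382, 1111 and 2232 CPM with SOS2 (adjusted p = 7.05e-08). The list had a median log2 difference of 0.02 against PKS5 and 0.20 against SOS2.

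The methionine cycle, which makes the methyl donor S-adenosylmethionine, took 8.33% ± 0.647 of SCAB1 reads, against 0.0998% ± 0.0530 with PKS5 and 3.32% ± 0.398 with SOS2. MS2, a cytosolic methionine synthase, had 41255, 48481 and 49066 CPM with SCAB1, against 79.6, 51.5 and 141 CPM with PKS5 and 2137, 1728 and 3223 CPM with SOS2. The groups did not overlap (adjusted p = 5.45e-05). The log2 difference was 9.25 ± 0.68 against PKS5 and 4.79 ± 0.76 against SOS2. SAM1, which makes S-adenosylmethionine and was chosen after its values were seen, had 31743, 35983 and 35957 CPM with SCAB1, against 239, 125 and 419 CPM with PKS5 and 16138, 20149 and 21164 CPM with SOS2. It was high with SCAB1 and SOS2 and was not called (adjusted p = 0.476). It was called with library size alone (0.014), when genes above 5% of a library were left out of the library size (0.0108) and with at least 100 reads (0.013). SAM-2, a further enzyme of the same step, averaged 438 CPM with SCAB1, 82.5 with PKS5 and 4749 with SOS2. Of 9 tested genes 1 was higher and 0 lower.

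Auxin-related enzymes gave 2 of the leading preys. TAA1 converts tryptophan in the main route of auxin synthesis. It had 36744, 37793 and 77009 CPM with SCAB1, against 255, 138 and 260 CPM with PKS5 and 274, 185 and 715 CPM with SOS2. Values of SCAB1 and the kinases were fully separate, and the ratio of means was 232 against PKS5 and 129 against SOS2 (adjusted p = 3.49e-07). Its level at 4 h was the highest of the SCAB1 libraries, as it was in the SOS2 libraries and, by little, in the PKS5 libraries. IBR10 is a peroxisomal enzyme of the conversion of indole-3-butyric acid to auxin. It had 13339, 14447 and 13808 CPM with SCAB1, against 40.7, 15.2 and 52.6 CPM with PKS5 and 56.0, 27.1 and 23.7 CPM with SOS2, with no overlap (adjusted p = 3.87e-11). In the auxin synthesis list 1 of 4 tested genes was higher, TAA1, and 0 lower. NIT1, a nitrilase of the same list, averaged 313 CPM with SCAB1, 268 with PKS5 and 3144 with SOS2. In amino acid synthesis 1 of 10 tested genes was higher and 1 lower. SHM1, a serine hydroxymethyltransferase of photorespiration, had 155, 177 and 127 CPM with SCAB1, against 17.5, 6.94 and 12.9 CPM with PKS5 and 31.4, 17.9 and 13.1 CPM with SOS2 (adjusted p = 7.3e-07). On distinct reads SHM1 was not higher than both kinases (log2 difference to the nearer kinase -0.10, adjusted p = 1). ASN1, an asparagine synthetase, was lower at 54.5, 12.7 and 21.9 CPM, against 725, 1038 and 1983 CPM with PKS5 and 344, 417 and 435 CPM with SOS2 (adjusted p = 9.41e-06, and 0.623 on distinct reads).

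**Figure D3:**
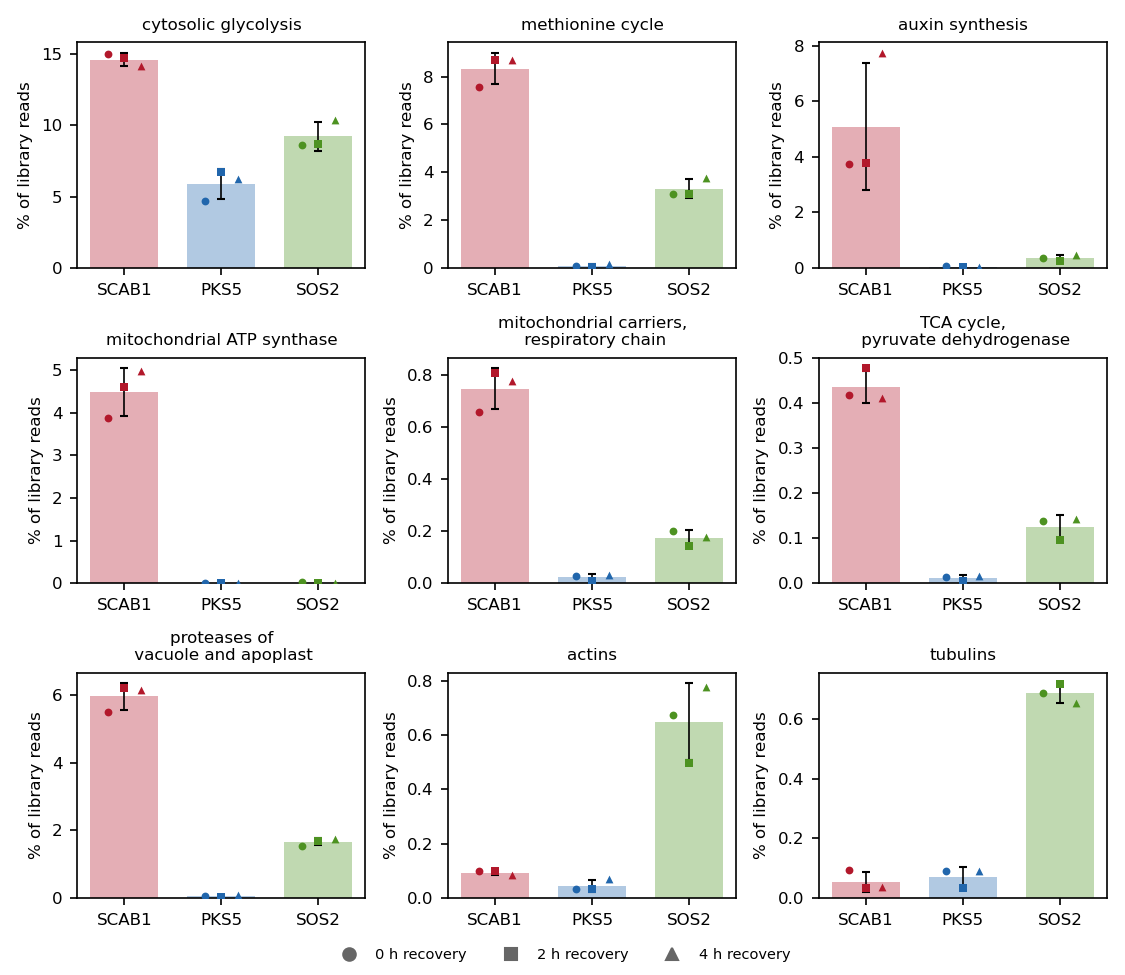
Share of library reads held by the annotated genes of 9 lists, with bars for the mean of 3 libraries, error bars for the SD and points for the libraries by recovery time; each panel has its own vertical axis starting at 0. Glycolysis averaged 14.6% with SCAB1, 5.89% with PKS5 and 9.22% with SOS2, whereas actins and tubulins were highest with SOS2.

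ARA12, a subtilisin-like protease of the cell wall space, had 53310, 60465 and 59974 CPM with SCAB1, against 120, 62.8 and 117 CPM with PKS5 and 7497, 10651 and 8453 CPM with SOS2. The groups did not overlap (adjusted p = 0.00588), but the adjusted p was 0.0517 without SCAB1 replicate 2 and 0.0731 without SCAB1 replicate 3. In the list of vacuolar and apoplastic proteases 1 of 8 annotated and tested genes was higher, ARA12, and 0 lower. The median log2 difference of that list was -0.15 against PKS5 and -2.14 against SOS2, beside -0.06 and -0.25 over all genes. ASPG1, named in RefSeq as an aspartic protease in guard cells, had 4928, 7695 and 9515 CPM with SCAB1. It had 102, 48.2 and 107 CPM with PKS5 and 761, 1106 and 932 CPM with SOS2 (adjusted p = 0.000565, and 0.469 on distinct reads). Of 6 subtilases found by name, chosen after values were seen, 2 had enough reads to test, and both were higher. The untested ones of the 6 had at most 11.4 CPM in any library. The name search did not find ARA12, so this count does not cover the whole family. SBT1.3 had 641, 1207 and 1013 CPM with SCAB1, against 5.21, 1.65 and 6.22 CPM with PKS5 and 15.03, 2.56 and 1.22 CPM with SOS2. SLP2 had 1106, 1575 and 1545 CPM with SCAB1 and at most 114 CPM in a kinase library.

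Of the cell wall families found by name, 3 of 11 tested expansins and 3 of 25 tested arabinogalactan proteins were higher (27.3% and 12.0%, beside 7.64% of all tested genes) and 0 of either were lower. Of the 3 expansins, 1 passed the filter through the SCAB1 libraries alone, which leaves 2 of 10. EXPA1, an expansin that loosens the wall, had 497, 562 and 465 CPM with SCAB1, against 4.26, 2.97 and 14.8 CPM with PKS5 and 8.20, 8.71 and 2.43 CPM with SOS2. FLA18, a fasciclin-like arabinogalactan protein, had 41.0, 46.3 and 33.5 CPM with SCAB1 and at most 5.46 CPM in a kinase library. Among the kinase libraries only SOS2 replicate 1 reached the filter level, so FLA18 needed SCAB1 libraries to pass. FLA18 rested on 6 and 3 distinct reads in SCAB1 replicates 1 and 2, against 2, 2 and 2 in PKS5 and 7, 4 and 3 in SOS2, so these overlapped. EXPA1 and FLA18 were chosen after their values were seen. PLAT2, a PLAT domain protein, had 2781, 3175 and 3166 CPM with SCAB1, against 174, 67.1 and 203 CPM with PKS5 and 673, 403 and 625 CPM with SOS2 (adjusted p = 0.000509, and 0.428 on distinct reads). The related PLAT1 was the other of 2 tested PLAT genes, and both were called higher.

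Membrane and signalling proteins included KT1, better known as AKT1, an inward potassium channel of the plasma membrane. It had 3423, 4447 and 3343 CPM with SCAB1, against 15.6, 3.97 and 16.3 CPM with PKS5 and 35.5, 14.9 and 12.5 CPM with SOS2. All SCAB1 values lay above all kinase values (adjusted p = 3.87e-11). The ratio of means was 313 against PKS5 and 178 against SOS2. Among 33 tested transporters found by name, 4 were higher (12.1%, beside 7.64% of all tested genes) and 0 lower. One of them, OPT1, passed the filter through the SCAB1 libraries alone, which leaves 3 of 32. PHT1;1, a phosphate transporter, had 536, 471 and 590 CPM with SCAB1 and at most 77.0 CPM in a kinase library, and its adjusted p was 0.374 on distinct reads. OPT1, an oligopeptide transporter, had 180, 222 and 170 CPM with SCAB1 and at most 1.42 CPM in a kinase library.

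Of 6 tested abscisic acid receptors found by name, 1 was called, and this gene passed the filter through the SCAB1 libraries alone. None of the other 5 was called higher. RCAR3, also called PYL8, had 75.9, 58.1 and 40.2 CPM with SCAB1, 0 in every PKS5 library and 0.455, 0.512 and 0 CPM with SOS2. Against the floor of 3 reads in each PKS5 library its mean was at least 45.3-fold higher with SCAB1. The receptors PYL5 and PYL1 were more abundant with SCAB1, averaging 1271 and 717 CPM. PYL5 averaged 200.5 CPM with PKS5 and 1965 CPM with SOS2, and PYL1 averaged 87.7 and 436 CPM, so neither was called (adjusted p = 1 and 0.236). PP2C74, a protein phosphatase of the 2C type, had 295, 471 and 397 CPM with SCAB1 and at most 4.098 CPM in a kinase library; it too passed the filter through the SCAB1 libraries alone. Calmodulins and calmodulin-like proteins had 2 of 10 tested genes higher. TCH3, a calmodulin-like protein, had 108, 120 and 122 CPM with SCAB1, against 28.9, 7.27 and 54.6 CPM with PKS5 and 57.8, 23.0 and 11.9 CPM with SOS2. TCH3 lost its call when genes above 5% of a library were left out of the library size (adjusted p = 0.13) and on distinct reads (1). RCAR3, PP2C74, PHT1;1, OPT1 and TCH3 were chosen after their values were seen.

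IBH1, a basic helix-loop-helix factor that restrains cell elongation, had 9233, 13526 and 11522 CPM with SCAB1, against 52.1, 45.6 and 47.4 CPM with PKS5 and 8.65, 3.07 and 4.56 CPM with SOS2. The groups did not overlap (adjusted p = 2.07e-09). Of 13 tested MYB factors 2 were higher. UBQ10, a polyubiquitin whose repeats are close copies of those of other genes, had 15705, 17718 and 19441 CPM with SCAB1. It had 2169, 1369 and 1837 CPM with PKS5 and 1545, 1170 and 1740 CPM with SOS2 (adjusted p = 0.000801, and 0.689 on distinct reads without SCAB1 replicate 3). Ubiquitin-conjugating enzymes, which pass ubiquitin to target proteins, had 4 of 21 tested genes higher (19.05%, beside 7.64% of all tested genes) and 0 lower. Without 1 that passed the filter through the SCAB1 libraries alone this is 3 of 20. UBC19 had 542, 463 and 510 CPM with SCAB1 and at most 39.2 CPM in a kinase library. On distinct reads it was not higher, with 8 and 11 in SCAB1 replicates 1 and 2, against 12, 9 and 10 in PKS5 and 9, 9 and 6 in SOS2 (log2 difference to the nearer kinase -0.37, adjusted p = 1). SGT1B, a co-chaperone in plant immunity and auxin response, averaged 806 CPM with SCAB1 and at most 105 CPM in a kinase library. Both of these were chosen after their values were seen, as was PAL1, the entry enzyme of the phenylpropanoid pathway, at 393, 729 and 537 CPM with SCAB1.

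In vesicle traffic, ELC, a part of the machinery that sorts ubiquitinated proteins at endosomes, had 162, 290 and 288 CPM with SCAB1. It had 4.26, 1.32 and 3.35 CPM with PKS5 and 26.0, 27.1 and 10.03 CPM with SOS2 (adjusted p = 4.9e-07). ELC rested on 7 and 4 distinct reads in SCAB1 replicates 1 and 2, against 2, 2 and 1 in PKS5 and 4, 4 and 4 in SOS2. It was 1 of 3 tested genes of its list. Of 21 tested RAB GTPases, switches of membrane traffic, 3 were higher (14.3%, beside 7.64% of all tested genes) and 0 lower. Of the 3, 1 passed the filter through the SCAB1 libraries alone, which leaves 2 of 20. RAB1C, chosen after its values were seen, had 110, 155 and 121 CPM with SCAB1 and at most 9.56 CPM in a kinase library. Among the kinase libraries only SOS2 replicates 1 and 2 reached the filter level, so RAB1C needed SCAB1 libraries to pass. Of 4 tested dynamin-like proteins 1 was higher. FBR12, the translation factor eIF5A-2, had 2030, 2516 and 1984 CPM with SCAB1, against 346, 116 and 324 CPM with PKS5 and 1015, 662 and 432 CPM with SOS2. Its adjusted p was 0.00395, and 0.0564 without SCAB1 replicate 2 and 0.0589 on distinct reads. It was the 1 gene called higher of 5 annotated and tested translation factors.

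The remaining leading preys have a symbol or number but no role given here. NFD6, named for a defect in nuclear fusion, had 7864, 9797 and 12019 CPM with SCAB1 and at most 9.43 CPM in a kinase library. CID11, named for a domain that interacts with the C-terminal domain of poly(A)-binding protein, had 2532, 4300 and 3777 CPM with SCAB1 and at most 20.04 CPM in a kinase library. AT4G26860 was the highest called prey, at 56586, 67128 and 61368 CPM with SCAB1. It had 765, 276 and 868 CPM with PKS5 and 8713, 11697 and 9250 CPM with SOS2 (adjusted p = 0.00505). Its adjusted p was 0.0541 without SCAB1 replicate 2 and 0.0653 without SCAB1 replicate 3. AT3G14240 averaged 30480 CPM with SCAB1, 29.5 with PKS5 and 2092 with SOS2 (adjusted p = 0.000132). AT5G12950, AT3G54200 and AT3G48550 had few reads with the kinases, with means of 5385, 4637 and 3053 CPM with SCAB1 and at most 41.0 CPM in a kinase library. AT5G12950 passed the filter through the SCAB1 libraries alone. The calls of 4 others depended on single libraries. AT1G17860 had an adjusted p of 0.0381, which was 0.262 without SCAB1 replicate 2, 0.251 without SCAB1 replicate 3, 0.135 without SOS2 replicate 1, 0.207 without SOS2 replicate 2, 0.05 without PKS5 replicate 2 and 0.0508 without PKS5 replicate 3. It was 0.068 with relative log expression factors and 0.0571 with limma-trend. AT5G42530 had 0.0289, which was 0.198 and 0.184 without SCAB1 replicates 2 and 3, 0.0541 and 0.256 without PKS5 replicates 2 and 3 and 0.0731 without SOS2 replicate 2, and was 0.0561 with relative log expression factors and 0.956 on distinct reads. AT3G15450 had 0.00757, which was 0.0721 and 0.0556 without SCAB1 replicates 2 and 3. AT1G29040 had 0.00324, which was 0.0775 without SOS2 replicate 2 and 0.0874 on distinct reads. AT2G37130, AT4G33960 and AT3G22440 averaged 7610, 4021 and 3332 CPM with SCAB1 and at most 396 CPM in any kinase library.

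Actins are the filament proteins that SCAB1 binds. Of 4 tested actins, 1 was higher and 1 lower. ACT11, an actin of reproductive tissues, had 712, 707 and 596 CPM with SCAB1, against 7.58, 1.65 and 8.61 CPM with PKS5 and 14.6, 5.63 and 4.26 CPM with SOS2. No SCAB1 value overlapped with a kinase value, and the log2 difference was 7.23 ± 0.49 against PKS5 and 7.10 ± 0.46 against SOS2 (adjusted p = 1.91e-10). ACT11 rested on 10 and 6 distinct reads in SCAB1 replicates 1 and 2, against 3 to 6 in the kinase libraries. ACT8, a vegetative actin, was lower at 44.5, 13.1 and 16.5 CPM with SCAB1, against 281, 299 and 629 CPM with PKS5 and 477, 291 and 499 CPM with SOS2 (adjusted p = 2.18e-06, and 0.0724 on distinct reads). ACT7, the vegetative actin of growing tissue, which like ACT2 was chosen after its values were seen, lay between the kinases. It had 213, 250 and 219 CPM with SCAB1, against 13.7, 5.29 and 28.7 CPM with PKS5 and 5261, 4029 and 6299 CPM with SOS2. ACT2 had 37.5, 11.8 and 9.15 CPM with SCAB1, which overlapped with the 43.1, 14.2 and 53.1 CPM of PKS5 and lay below the 997, 651 and 951 CPM of SOS2. Actins together took 0.0943% ± 0.00899 of SCAB1 reads, against 0.0462% ± 0.0224 with PKS5 and 0.649% ± 0.140 with SOS2. Because actin genes resemble each other closely, reads may have been assigned to the wrong member.

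Among actin-binding proteins, 2 of 16 tested genes were higher (12.5%, beside 7.64% of all tested genes) and 0 lower, and 14 more of 30 in the table were too rare to test, at 11.4 CPM or less in any library. One of the 2 was SCAB1 itself, which passed the filter through its own libraries alone, so that 1 of 15 others was higher. That gene was WLIM2b, a LIM-domain protein that binds and bundles actin filaments, at 206, 230 and 238 CPM with SCAB1. It had 58.8, 16.2 and 73.7 CPM with PKS5 and 138, 77.3 and 51.1 CPM with SOS2, with no overlap. Its log2 difference was 2.69 ± 0.42 against PKS5 and 2.05 ± 0.43 against SOS2 (adjusted p = 0.00131). With library size alone in place of TMM factors the adjusted p was 0.322, and it was 0.0987 when genes above 5% of a library were left out of the library size. The paralogs WLIM1 and WLIM2a averaged 3.18 and 9.78 CPM with SCAB1 and were not called. Of the profilins, which bind actin monomers, 0 of 3 tested were called, and of the actin-depolymerising factors, which sever filaments, 0 of 5. ADF4 of that family, chosen after its values were seen, was abundant with PKS5 alone, at 8.49, 3.50 and 3.66 CPM with SCAB1, 796, 370 and 642 CPM with PKS5 and 14.6, 3.07 and 3.04 CPM with SOS2. The median log2 difference of actin-binding proteins was -0.23 against PKS5 and -0.09 against SOS2.

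**Figure D4:**
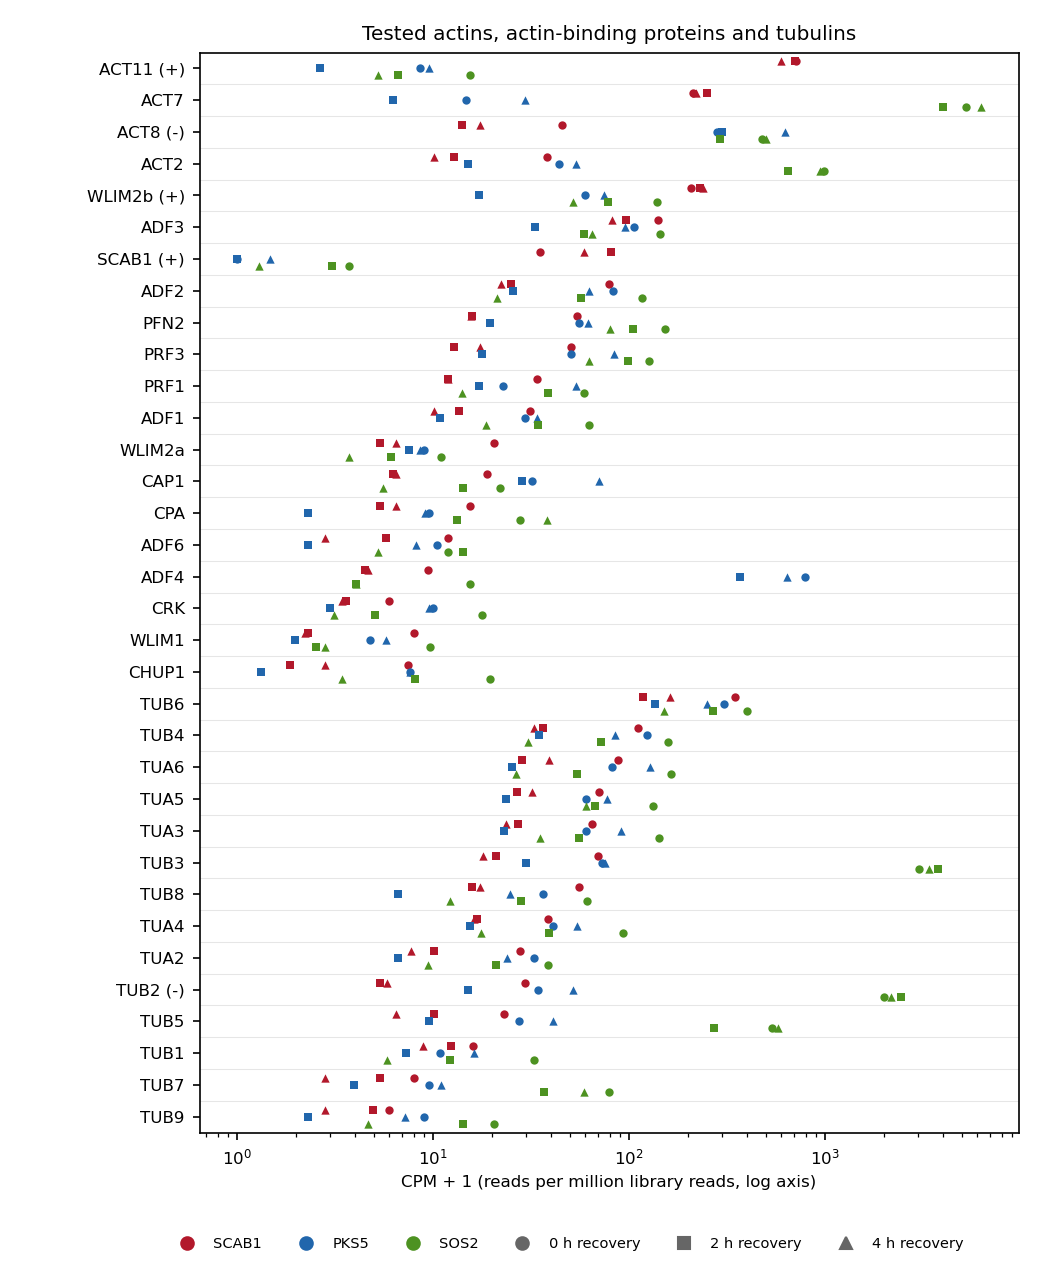
Abundance in every library of the tested actins, actin-binding proteins and tubulins, as CPM plus 1 on a log axis, with SCAB1 in red, PKS5 in blue and SOS2 in green; a plus marks genes called higher and a minus genes called lower than both kinases. ACT11, WLIM2b and SCAB1 carry a plus, ACT8 and TUB2 a minus.

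Tubulins were tested beside the actins. Of 14 tested tubulins 0 were higher and 1 lower, TUB2, a beta-tubulin. It had 28.5, 4.37 and 4.88 CPM with SCAB1, against 33.6, 14.2 and 51.2 CPM with PKS5 and 2014, 2455 and 2174 CPM with SOS2. The SCAB1 and PKS5 values overlapped, and the adjusted p of 0.0387 was 0.196 without SCAB1 replicate 2, 0.184 without SCAB1 replicate 3 and 0.101 without PKS5 replicate 2 and 0.1 without PKS5 replicate 3. It was 0.569 with library size alone, 0.209 with no filter and 1 on distinct reads. TUB3, chosen after its values were seen, had 69.0, 20.1 and 17.1 CPM with SCAB1, 72.5, 29.1 and 75.1 CPM with PKS5 and 3013, 3800 and 3390 CPM with SOS2 and was not called. Of 4 tested microtubule-associated proteins 0 were called. EB1C, a plus-end binding protein, averaged 2.42 CPM with SCAB1, 816 with PKS5 and 2.08 with SOS2. TRM27, a protein with a TON1 recruiting motif that was chosen after its values were seen, was higher at 252, 145 and 147 CPM with SCAB1 and at most 25.5 CPM in a kinase library. TRM27 rested on only 2 and 4 distinct reads in SCAB1 replicates 1 and 2, against 1 in each kinase library. None of the 5 myosins and kinesins and 3 ROP GTPases in the table had enough reads to test. Chaperonin and prefoldin genes, which fold actin and tubulin, had 0 of 4 annotated and tested genes called.

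Further lists held no call. These were 14 annotated and tested genes of the peroxisome and photorespiration, 8 of the 14-3-3 proteins and 4 of HSP70, HSP90 and DnaJ proteins. The peroxisomal IBR10 and the photorespiratory SHM1 were called higher but stood in other lists. The first list therefore does not cover every called prey of that compartment or pathway. Chloroplast lists had 1 tested gene each. PSAO, a photosystem I subunit, averaged 2952 CPM with SCAB1, 3461 with PKS5 and 5491 with SOS2, and the carbonic anhydrase CA1 averaged 66.6 CPM with SCAB1, 61.0 with PKS5 and 274 with SOS2. The 2 genes of the chloroplast genome averaged 5.79 CPM together with SCAB1, 4.03 with PKS5 and 7.79 with SOS2.

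Preys lower with SCAB1 than with both kinases took 0.197%, 0.101% and 0.0950% of SCAB1 reads, against 21.4%, 26.6% and 26.3% with PKS5 and 6.71%, 7.21% and 8.40% with SOS2. AT1G01730 had 135, 125 and 121 CPM with SCAB1, against 42885, 64725 and 48133 CPM with PKS5 and 4412, 6887 and 4632 CPM with SOS2 (adjusted p = 2.08e-06). AT5G37740 had 67.5, 56.4 and 33.5 CPM with SCAB1 and at least 6025 CPM in each kinase library. The splicing helicase emb1507 averaged 7.505 CPM with SCAB1, 21477 with PKS5 and 285 with SOS2. AKINBETA1, a regulatory subunit of the energy-sensing kinase SnRK1, had 8.49, 3.50 and 8.54 CPM with SCAB1, against 45.5, 37.7 and 67.0 CPM with PKS5 and 14434, 23288 and 16310 CPM with SOS2 (adjusted p = 0.000107, and 0.595 on distinct reads without SCAB1 replicate 3). AT5G47710 averaged 12.8 CPM with SCAB1, 26392 with PKS5 and 57.0 with SOS2. Its adjusted p of 0.01 was 0.393 without SCAB1 replicate 1, 0.163 without SOS2 replicate 2 and 0.0701 without SOS2 replicate 3. It was also lost with relative log expression factors (0.0506), with library size alone (0.129), when genes above 5% of a library were left out of the library size (0.0547), with no filter (0.103), with at least 100 reads (0.0632), with limma-trend (0.09) and on distinct reads (1), where the log2 difference to the nearer kinase was 0.02.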

How the data were processed

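Prey inserts of 9 libraries were sequenced. Per the labels' protocols, inserts were amplified by PCR and fragments with 29 bp of vector sequence enriched. Cutadapt 1.18, CASAVA, HISAT2 and the TAIR10 genome are named in the submitters' processing notes. The authors deposited whole-number read counts and distinct (unique) read counts per gene, not normalized, per the file headers; a mark for no read was taken as 0. Distinct reads of SCAB1 replicate 3 were left out: all 10224 cells match replicate 2. No cell of the other 8 libraries held more distinct reads than reads. The sources used here do not give how reads of near-identical genes were assigned. Counts cover PCR copies, so floors of 3 reads cover counting error only.

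Genes with about 10 reads in at least 3 libraries and 15 in all were tested with limma-voom (limma 3.58.1, R 4.3.3), TMM factors (30% and 5% trimmed), an offset of 0.5 and robust variance. Adjustment over genes followed Benjamini and Hochberg. CPM is reads over the library total, without TMM. TMM factors ran from 0.440 (PKS5 replicate 2) to 2.38 (SOS2 replicate 1) and were 1.72, 0.569 and 0.645 in SCAB1. Ratios of mean CPM and log2 differences are therefore on different scales. The tools edgeR and DESeq2 were not used, though the values are whole-number counts once the marks are read as 0. The fit was also run on simulated counts with the same spread for every gene. That run checked the code only and is no support for the calls. Composition was compared by exact permutation (scipy, Python). RefSeq (TAIR10.1) held 10201 of the 10224 identifiers and gave a symbol to 1919 of the 3811 tested genes. Members without a RefSeq name were left out of 22 gene lists written by hand; 13 further lists were drawn from RefSeq names after values were seen. The members and lists were chosen with earlier results of these data known.

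Named genes were the 25 highest called higher, the 5 highest of all, the 6 highest in the kinases called lower, called cytoskeleton genes and up to 4 called genes per direction of other hand-written lists; the others were chosen after seeing values. Chi-square per degree of freedom between libraries of a bait was 22.5 to 77.3, so none was a copy. Alternatives were 18 refits and a stricter threshold of 0.01.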

Additional observations from a re-analysis of the deposited data

How the results depend on the processing

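The count of genes called in the same direction against each kinase (357) was 245 to 404 when 1 library was left out, and the higher and lower calls were 198 to 335 and 40 to 81. The count against the kinase mean (1345) was 960 to 1349, with 409 to 671 higher and 443 to 802 lower. With library size alone, 41 genes were lower than both kinases and 830 were called against the kinase mean (333 higher, 497 lower). Without genes above 5% of any library, 321 were higher than the mean. With at least 100 reads in 3 libraries, 814 were called against the mean (346 higher, 468 lower). Distinct reads without SCAB1 replicate 3 left 872 genes to test. Of these, 56 were called against both (43 higher, 13 lower) and 242 against the mean (126 higher, 116 lower). Only 80 of the 291 higher calls were among the 872 genes. Of these 80, 26 were called higher again, and they were 26 of the 43. Without the 0 h libraries 886 were called against the mean (404 lower). Scaling moved the median log2 difference of all genes from -0.06 to -0.88 against PKS5 (without genes above 5%) and from -0.25 to -0.71 against SOS2 (library size alone). The effective number of genes, SCAB1 minus kinases (-4.29), ran from -23.3 to 31.4 when 1 library was left out, and was above 0 without SCAB1 replicate 2 (4.02), SCAB1 replicate 3 (6.40), SOS2 replicate 1 (31.4) or SOS2 replicate 3 (1.12), and the share of the 10 highest genes, SCAB1 minus kinases, was -7.67 percentage points on reads and 1.28 on distinct reads. The cause was not tested. Of 60 named calls, 36 held under every alternative that tested them, and 11 were lost only on distinct reads (UBQ10, ASPG1, PLAT2, AKINBETA1, ACT8, SHM1, ASN1, CYTC-1, UBC19, PHT1;1 and SDH5). Many of the 36 were not tested under all 18 refits. Among the 36, SCAB1 and RCAR3 were tested under 12 and AT5G12950, PP2C74 and OPT1 under 13. These genes passed the filter through the SCAB1 libraries alone and had to differ. The 36 also held FLA18 and RAB1C, which needed SCAB1 libraries to pass. On distinct reads the log2 difference to the nearer kinase turned for UBC19 (-0.37), SHM1 (-0.10), SDH5 (-0.0844) and AT5G47710 (0.0193). Recovery time numbers the libraries, but same-numbered libraries did not all deviate together (correlations of -0.0209 to 0.161), so numbers were not taken as pairs. With the replicate block 409 genes were called against both kinases and 1521 against the mean, and 66 of 68 named results kept their call, the exceptions being GAPC1 and ACO1, which passed the threshold.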
